A study of Mus musculus with 2 samples.

Results

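The genes described here are 51 genes of Wnt signalling: secreted Wnt ligands, R-spondins, frizzled receptors and their co-receptors, secreted antagonists, dishevelled proteins, the complex that degrades beta-catenin, the TCF/LEF transcription factors and the genes needed to secrete a Wnt. They were taken by gene symbol from a list that was chosen with earlier results of these data known. All 51 were found among the 54713 rows of the deposited gene table. CPM are counts scaled to a common library size. Of the 51, 38 averaged 1 CPM or more across both libraries and are called measured below, as were 13268 genes in all. The other 13 members lay under that level, and 6 of them (Wnt2, Rspo1, Rspo2, Dkk1, Dkk2 and Sfrp1) had 0 counts in both libraries, which allows up to 3 counts, or 0.197 CPM (control) and 0.193 CPM (AI662270).

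RNA-seq was done on SV40 MES13, an established mouse kidney line described in the labels as mesangial. One subline, Lv_AI662270, carried a lentivirus for the long noncoding RNA AI662270, and the other, Lv_NC (genotype WT), carried a control virus; both were otherwise labelled untreated, were selected in 0.5 mg/ml puromycin and were kept in 0.25 mg/ml puromycin with 10% serum. Each group was 1 library of 1 stable subline, so each comparison describes 2 libraries and not 2 conditions, and no p-value was computed. The treatment label also names Sox9 as the transcript checked by qRT-PCR, so its wording does not fully match the construct. In the counts, AI662270 (ENSMUSG00000087107, chromosome 11, 83223576 to 83226604, plus strand, mm10) had 0 counts in the control and 241 in the library labelled with it, which is at least 78.4-fold higher when 3 counts are taken as the floor (interval from 63.3).

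The control library held 15727023 counts over 20259 genes and the AI662270 library 15062482 over 21262. The defining markers of the labelled cell type were only partly present. Of 12 mesangial and pericyte markers 5 were measured, Itga8, Rgs5 and Ren1 were at 0 in both libraries, and the summed level was 43.7 CPM (control) and 56.3 CPM (AI662270). The measured ones included Pdgfrb (12.2 and 21.7 CPM) and Foxd1 (23.4 and 16.9 CPM). Of that list Acta2, a smooth muscle actin, was higher, with 12 and 171 counts, and Gata3, a transcription factor of mesangial cells, was lower, with 76 and 25. The 7 tubule markers summed to 571 and 439 CPM, most of it from the epithelial genes Cdh16 (325 and 283 CPM) and Epcam (185 and 104 CPM), with Slc34a1 and Umod at 0 in both. Podocyte markers summed to 153 and 84.1 CPM with Nphs1 at 0, immune markers to 34.4 and 14.6 CPM with Adgre1 and Cd3e at 0, endothelial markers to 26.6 and 25.3 CPM with Tek and Emcn at 0, and fibroblast markers to 4.67 and 8.66 CPM with Col1a2, Col3a1 and Lum at 0. The part of these markers in the Wnt values below was not tested.

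Wnt proteins are lipid-modified ligands that bind frizzled receptors. In the canonical branch a Wnt joins a frizzled to LRP5 or LRP6, dishevelled is recruited, the Axin, APC and GSK3 complex stops degrading beta-catenin, and beta-catenin enters the nucleus to act with TCF/LEF factors. In the Wnt5a-type branch, ligands such as Wnt5a act through frizzleds with ROR1, ROR2 or RYK on cell polarity, movement and calcium rather than through beta-catenin. R-spondins bind LGR receptors and remove the ligases ZNRF3 and RNF43, which otherwise take frizzleds off the cell surface. In the kidney, Wnt4 and Wnt9b are needed to form nephrons, and beta-catenin signalling is known to be raised in injured and scarring kidney. Several ligands, Wnt4 and Wnt11 among them, can act in either branch, so the split used below is a convention.

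The 6 RefSeq promoter windows printed here show the sequence just upstream of members whose counts are described below. RefSeq windows of build GRCm38.p6 were matched by symbol for 34 of the 51 members, giving 44 windows of 250 bases that end at the annotated start. Each was searched on both strands, with overlapping matches counted, for CTTTGAT, the core of the TCF/LEF site, and for GGGCGG, the GC box, which was added after the data had been seen. CTTTGAT was found in 2 of 44 member windows (4.55%) and in 1053 of 32851 windows of all genes (3.21%). GGGCGG was found in 32 of 44 member windows (72.7%) and in 10756 of 32851 windows of all genes (32.7%). The windows of Ror1, Ror2 and Wnt6 are shown because these genes were higher in the AI662270 library, that of Axin2 because it is a standard target of beta-catenin, and those of Wnt11 and Wnt5b because they hold the CTTTGAT matches. Wnt5a, Rspo3 and Fzd3, which were also higher, and Wnt7b, which was lower, had no matched window. Wnt11 has 2 windows and Wnt5b 3, for different annotated starts; the Wnt5b window shown lies inside the gene, and the other windows of both genes held no CTTTGAT. Capitals mark matches to either motif or its reverse complement, and each sequence is written 5′ to 3′ on the strand of the gene.
Ror1, chr4:100095541-100095790, plus strand: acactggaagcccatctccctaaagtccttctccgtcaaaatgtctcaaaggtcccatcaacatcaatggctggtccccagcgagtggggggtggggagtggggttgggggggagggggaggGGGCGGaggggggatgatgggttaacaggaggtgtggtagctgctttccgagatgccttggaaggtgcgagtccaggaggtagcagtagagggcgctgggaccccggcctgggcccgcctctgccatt
Ror2, chr13:53286125-53286374, minus strand: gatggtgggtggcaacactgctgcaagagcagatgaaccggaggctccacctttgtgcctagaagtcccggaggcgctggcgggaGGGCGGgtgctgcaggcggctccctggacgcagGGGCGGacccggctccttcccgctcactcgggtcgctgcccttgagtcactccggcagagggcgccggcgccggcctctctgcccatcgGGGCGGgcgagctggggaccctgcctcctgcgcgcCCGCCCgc
Wnt6, chr1:74771642-74771891, plus strand: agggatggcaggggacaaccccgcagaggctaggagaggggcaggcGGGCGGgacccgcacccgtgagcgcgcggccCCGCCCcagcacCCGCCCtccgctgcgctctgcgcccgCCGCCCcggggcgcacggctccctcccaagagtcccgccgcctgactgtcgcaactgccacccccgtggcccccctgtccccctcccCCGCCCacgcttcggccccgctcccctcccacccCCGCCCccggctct
Axin2, chr11:108920099-108920348, plus strand: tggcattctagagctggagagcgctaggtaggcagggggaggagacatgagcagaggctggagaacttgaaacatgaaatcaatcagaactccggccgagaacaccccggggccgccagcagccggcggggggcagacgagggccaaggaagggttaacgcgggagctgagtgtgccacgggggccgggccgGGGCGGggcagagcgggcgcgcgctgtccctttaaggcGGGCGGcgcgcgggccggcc
Wnt11, chr7:98834862-98835111, plus strand: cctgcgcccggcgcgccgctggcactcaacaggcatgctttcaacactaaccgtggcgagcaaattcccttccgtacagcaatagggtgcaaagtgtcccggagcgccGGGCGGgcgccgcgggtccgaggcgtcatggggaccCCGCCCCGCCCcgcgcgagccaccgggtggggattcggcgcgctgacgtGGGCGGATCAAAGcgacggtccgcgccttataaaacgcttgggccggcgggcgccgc
Wnt5b, chr6:119449387-119449636, minus strand: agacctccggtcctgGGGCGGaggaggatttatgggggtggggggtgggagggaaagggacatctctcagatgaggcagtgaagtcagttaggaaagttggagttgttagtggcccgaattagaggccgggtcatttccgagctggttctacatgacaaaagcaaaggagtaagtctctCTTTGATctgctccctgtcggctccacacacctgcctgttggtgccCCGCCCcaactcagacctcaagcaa
The Wnt6 window held 6 GC boxes in 79.6% G and C, Ror2 held 4 in 73.2%, and Ror1 held 1 in 62.4%. In Axin2 there were 2 GC boxes and no CTTTGAT. A match describes these letters only.

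Of the members, 6 were higher in the AI662270 library (Rspo3, Ror1, Wnt5a, Wnt6, Fzd3 and Ror2), 1 was lower (Wnt7b), and 31 passed in neither direction. A gene was called higher or lower at a log2 ratio of at least 1 in size, computed with 0.5 CPM added to each library, together with a 95% exact counting interval of the ratio that leaves out 1. By the same rule 5.59% of all measured genes were higher (742) and 5.72% were lower (759). The median log2 ratio of the 38 measured members was 0.07, with a range from -1.78 to 3.35, beside -0.02 for all measured genes. Summed over the 51 members, the level was 2590 CPM (control) and 2500 CPM (AI662270). In a bulk library, fewer cells that express a gene and less RNA per cell cannot be told apart. The 6 higher members all had means of 1 to 20 CPM, where 18 members lay and where 11.6% of all genes were higher and 7.24% lower. The 20 members above 20 CPM held the 1 lower member and no higher one, at a background of 1.95% higher and 4.79% lower.

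**Figure D1:**
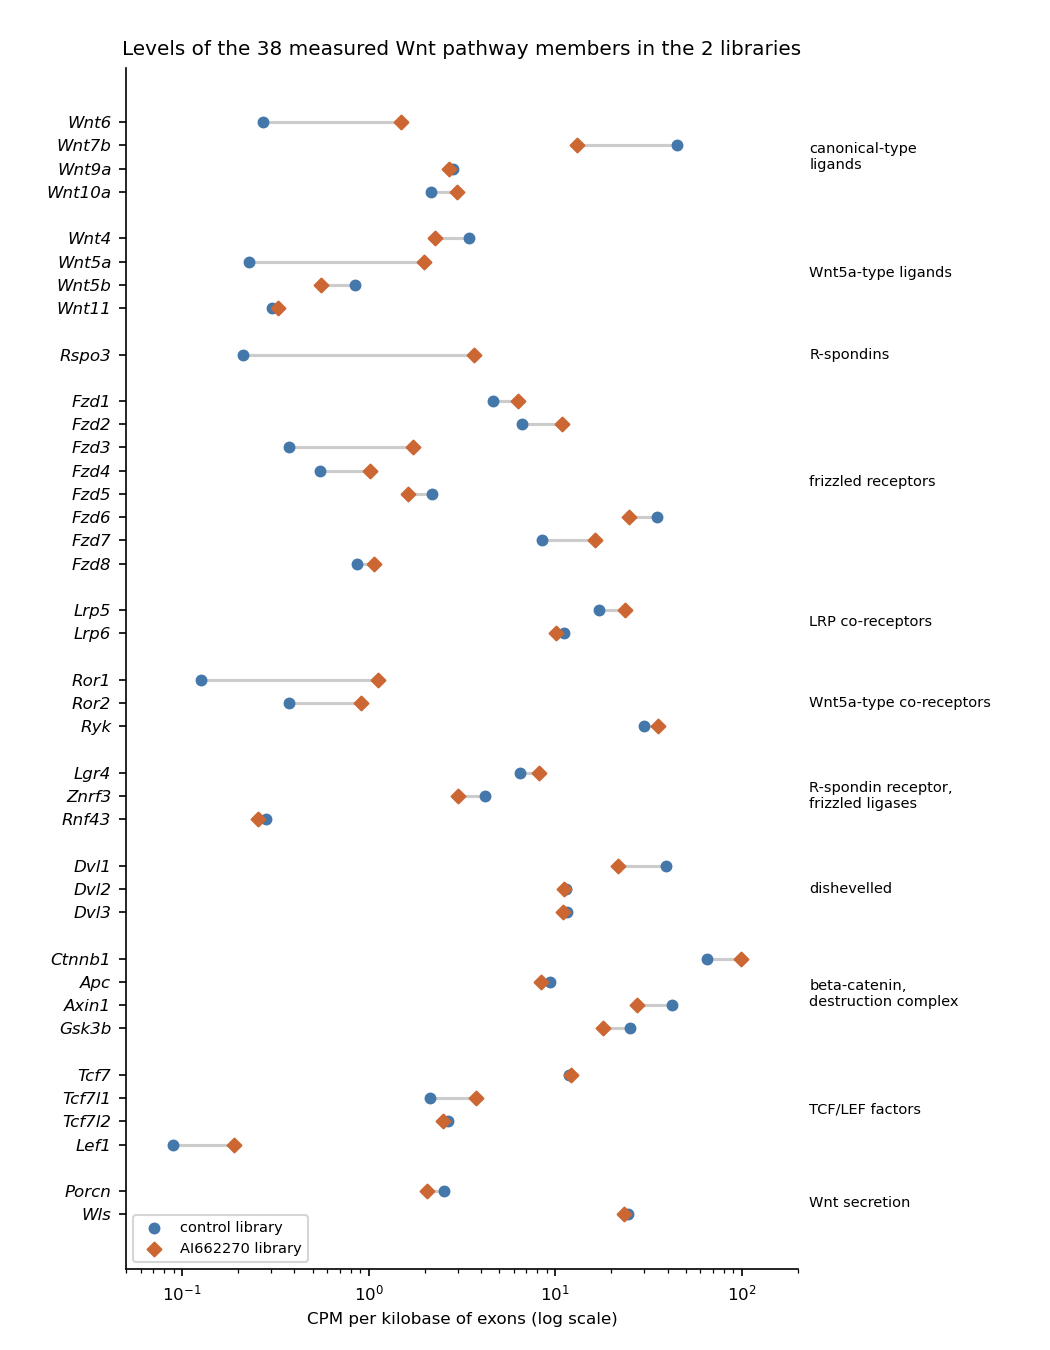
Level of each measured member in CPM per kilobase of exons (log axis), ordered by role, with a circle for the control library and a diamond for the AI662270 library. Ctnnb1 was the most abundant member in both (65.1 and 99.1), and the widest gaps belong to Rspo3, Ror1, Wnt5a, Wnt6, Fzd3 and Wnt7b.

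Among the canonical-type ligands, Wnt7b was lower and Wnt6 was higher, and the abundant member was the one that was lower. Wnt7b, a ligand needed for the medulla of the developing kidney (chromosome 15, 85535437 to 85582473, minus strand), had 3361 counts with the control virus and 995 with AI662270, or 221 and 63.9 CPM. It was 3.46-fold lower (3.22 to 3.72). In the control library its level per kilobase, 45.1 CPM, was below that of Ctnnb1 alone among the members, and with AI662270 it was 13.0 CPM. Wnt6 (chromosome 1, 74771892 to 74785322, plus strand) had 9 and 51 counts, or 0.592 and 3.27 CPM, 5.53-fold higher (2.7 to 12.8). Wnt10a, which lies next to Wnt6 on the same strand, had 81 and 114 counts, a ratio of 1.37 (1.02 to 1.85) that did not pass. Wnt9a had 143 and 140 counts, a ratio of 0.955 (0.751 to 1.21). The remaining ligands of this type were under the level for measured genes: Wnt2b had 13 and 11 counts, Wnt3 had 0 and 9, and Wnt2 had none. Against the floor, the Wnt3 level was at least 2.93-fold higher (interval from 1.93).

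Of the 4 Wnt5a-type ligands, all measured, Wnt5a alone passed. Wnt5a (chromosome 14, 28504750 to 28527448, plus strand) had 27 counts with the control virus and 241 with AI662270, or 1.78 and 15.5 CPM, and was 8.71-fold higher (5.84 to 13.5). Its close relative Wnt5b had 34 and 23 counts, a ratio of 0.66 (0.371 to 1.15). The order of this pair was therefore reversed per kilobase of exons: 0.227 CPM for Wnt5a and 0.843 CPM for Wnt5b in the control, 1.98 CPM and 0.556 CPM with AI662270. Wnt5b overlaps Fbxl14 on the opposite strand, which had 592 and 681 counts, and reads of overlapping genes cannot be told apart. The part of Fbxl14 in the Wnt5b level was not tested. Wnt4, the nephron-forming ligand, had 219 and 148 counts, a ratio of 0.659 (0.532 to 0.816) short of the size rule. Wnt11, which acts on ureteric branching, had 19 and 21 counts, a ratio of 1.08 (0.552 to 2.12).

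The make-up of the ligand pool differed between the libraries. All 19 mouse Wnt genes together had 4169 counts (control) and 1852 (AI662270), or 60.8 and 27.7 CPM per kilobase. Wnt7b gave 80.6% of the control counts (79.4 to 81.8, exact binomial interval) and 53.7% of the AI662270 counts (51.4 to 56). The Wnt5a share was 0.648% (0.427 to 0.941) and 13.0% (11.5 to 14.6). The 7 canonical-type members together held 86.5% (85.4 to 87.5) and 71.3% (69.2 to 73.3), and the 4 Wnt5a-type members held 7.17% (6.41 to 8) and 23.4% (21.5 to 25.4). The whole pool was smaller in the AI662270 library, so shares do not give the change in level. The Wnt5a-type members summed to 19.7 CPM (control) and 27.8 CPM (AI662270), and the canonical-type members to 237 and 84.7 CPM. On the per-kilobase scale, which allows genes to be compared, the canonical-type share was 83.2% and 74.1% and the Wnt5a-type share 7.9% and 18.5%. Canonical-type ligands were thus the larger part of the pool in both libraries. These intervals cover counting error only.

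**Figure D2:**
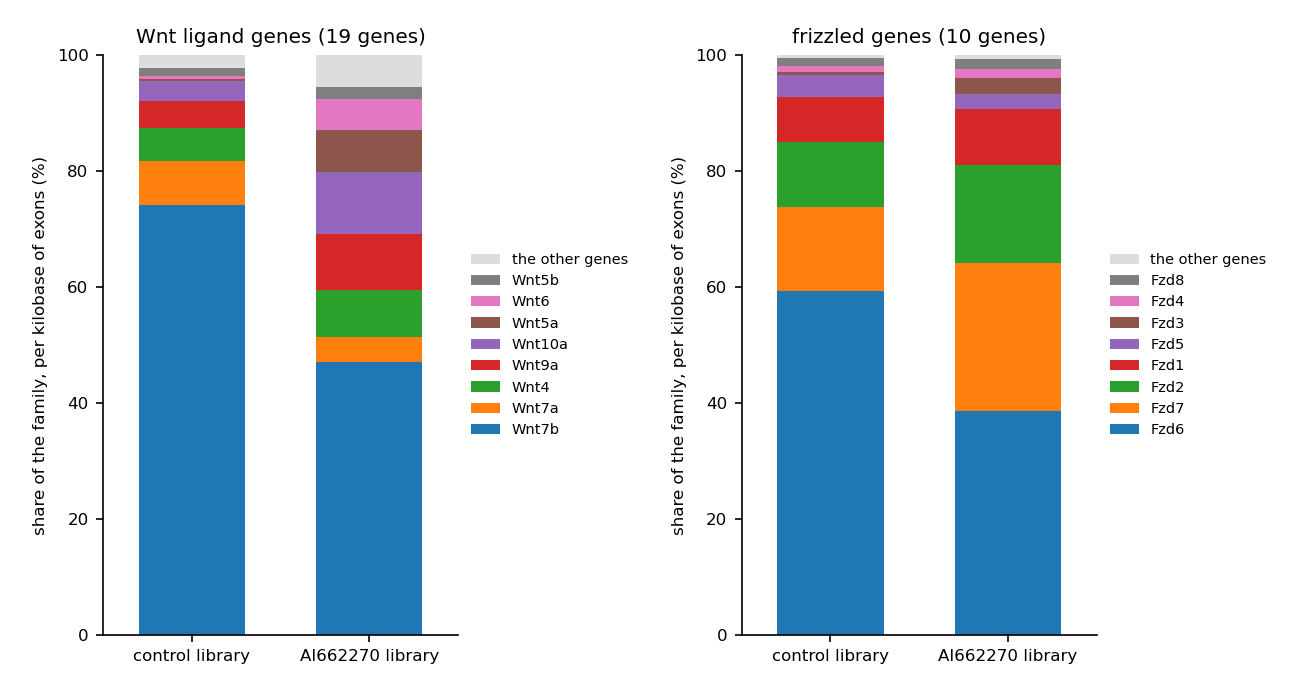
Share of the summed level per kilobase of exons (percent) taken by each gene among the 19 Wnt genes (left) and the 10 frizzled genes (right), with 1 bar per library and the less abundant genes pooled. The Wnt7b share was 74.2% (control) and 47.0% (AI662270), and the Fzd6 share 59.4% and 38.6%.

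Rspo3 showed the largest fold of the measured members. Rspo3, a secreted amplifier of Wnt signals (chromosome 10, 29452416 to 29535867, minus strand), had 10 and 176 counts, or 0.658 and 11.3 CPM, and was therefore 17.2-fold higher (9.12 to 36.4). Rspo1 and Rspo2 had no counts, so Rspo3 was the R-spondin with counts in both libraries. Its receptor Lgr4 had 581 and 745 counts, a ratio of 1.25 (1.12 to 1.4). For the ligases that R-spondins remove, Znrf3 had 505 and 371 counts, a ratio of 0.717 (0.625 to 0.821), and Rnf43 had 28 and 26, a ratio of 0.906 (0.51 to 1.6). None of these 3 passed, and their summed level was 73.3 CPM in each library.

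All 8 frizzled members were measured, and Fzd3 was the 1 that passed. Fzd3, a receptor known for axon guidance and planar polarity (chromosome 14, 65192449 to 65262463, minus strand), had 73 and 345 counts, or 4.80 and 22.1 CPM, 4.61-fold higher (3.57 to 6.02). Fzd7 lay just short of the rule, with 588 and 1158 counts, a ratio of 1.92 (1.74 to 2.13) and a log2 ratio of 0.93. It passed when libraries were scaled by total counts, with a log2 ratio of 1.03, and also when they were scaled by upper quartiles. Fzd2, with 370 and 619 counts, and Fzd4, with 56 and 106, had ratios of 1.63 (1.43 to 1.86) and 1.85 (1.32 to 2.6). Fzd1 had 296 and 411 counts, a ratio of 1.35 (1.16 to 1.58), and Fzd8 had 44 and 56, a ratio of 1.24 (0.822 to 1.89). Fzd6, the most abundant frizzled, had 2575 and 1859 counts, a ratio of 0.704 (0.663 to 0.748), and Fzd5 had 230 and 175, a ratio of 0.742 (0.606 to 0.908). The frizzled median was 0.56 on the log2 scale.

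The make-up of the frizzled pool differed too. The 10 frizzled genes had 4240 and 4746 counts, or 59.2 and 64.2 CPM per kilobase. Fzd6 gave 60.7% of the control counts (59.2 to 62.2) and 39.2% of the AI662270 counts (37.8 to 40.6), and Fzd7 gave 13.9% (12.8 to 14.9) and 24.4% (23.2 to 25.6). Fzd3 went from 1.72% (1.35 to 2.16) of the counts to 7.27% (6.55 to 8.05), but with its long exons it held 0.634% and 2.69% per kilobase. Per kilobase the order Fzd6, Fzd7, Fzd2, Fzd1 was the same in both libraries.

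The co-receptors of the Wnt5a-type branch included 2 higher members, and those of the canonical branch none. Ror1, a receptor tyrosine kinase-like protein that binds Wnt5a (chromosome 4, 100095791 to 100444765, plus strand), had 11 and 101 counts, or 0.724 and 6.48 CPM, and was 8.96-fold higher (4.8 to 18.5). Ror2, its relative with a role in skeletal patterning (chromosome 13, 53109312 to 53286124, minus strand), had 24 and 60 counts, or 1.58 and 3.85 CPM, and was 2.44-fold higher (1.5 to 4.1). The log2 ratio of Ror2 was 1.07, and it was 0.71 and did not pass with a pseudocount of 2 CPM. Ryk, the Wnt receptor with an inactive kinase domain, had 2062 and 2509 counts, a ratio of 1.19 (1.12 to 1.26). Ryk held 98.4% of the level of the 3 genes per kilobase with the control virus and 94.6% with AI662270, so the Ror genes stayed the small part of this set. Of the canonical co-receptors, Lrp5 had 2534 and 3585 counts, a ratio of 1.38 (1.31 to 1.45), and Lrp6 had 2316 and 2159, a ratio of 0.91 (0.857 to 0.965).

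**Figure D3:**
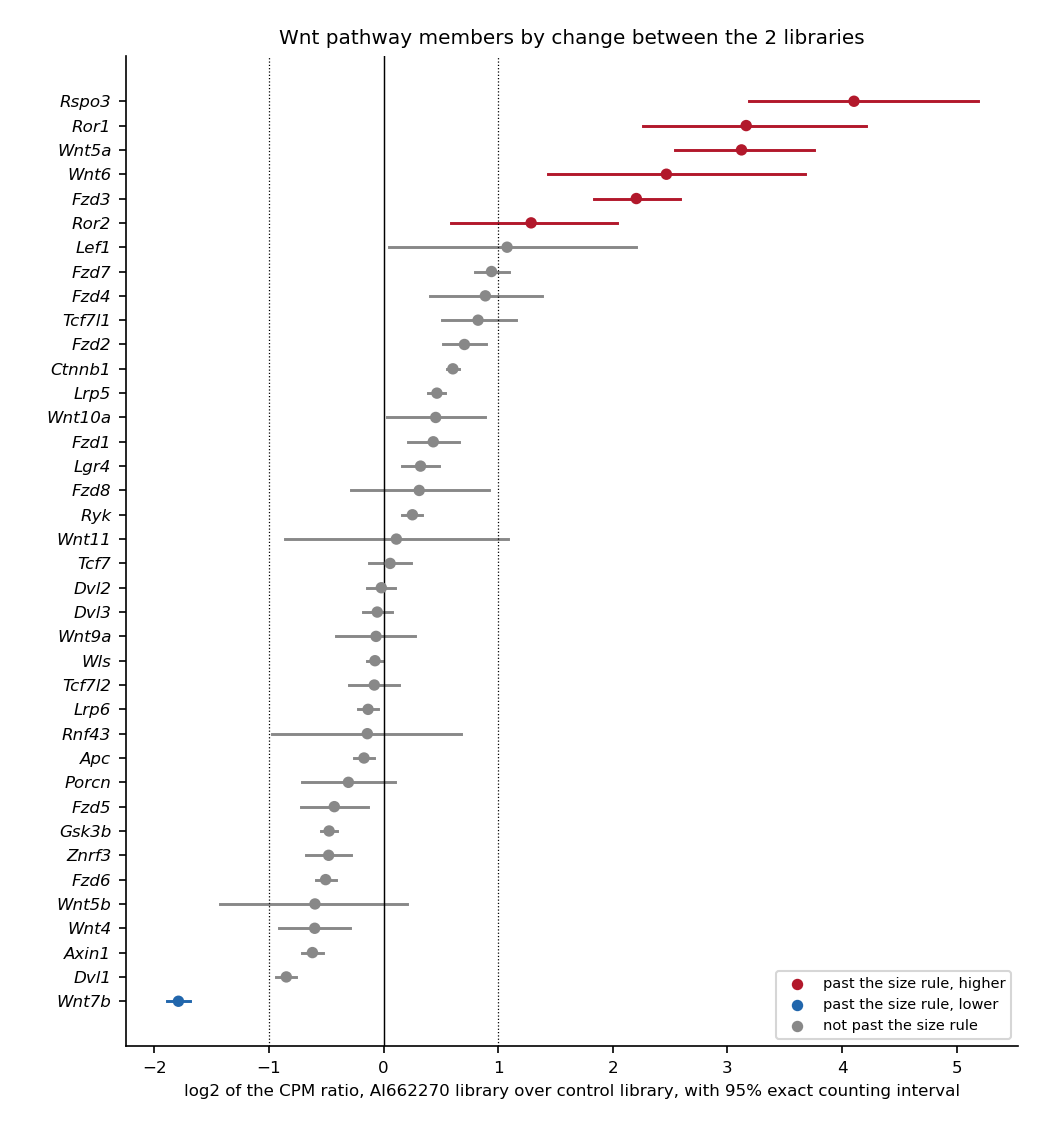
Log2 of the CPM ratio (AI662270 library over control library, no pseudocount) for the 38 measured members, with 95% exact counting intervals as bars and dotted lines at 2-fold. Rspo3 is at the top and Wnt7b at the bottom; Lef1 lies past the dotted line here but had a log2 ratio of 0.75 once 0.5 CPM was added, so it did not pass.

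Secreted antagonists were at or near 0 in both libraries. None of the 7 was measured, and their summed level was 0.263 CPM (control) and 1.48 CPM (AI662270). The Dickkopf genes Dkk1 and Dkk2, which block LRP5 and LRP6, had no counts, and Dkk3 had 3 and 13, a ratio of 4.23 (1.16 to 23.1). Among the antagonists that bind Wnts directly, Frzb had 0 and 8 counts, so against the floor it stood at least 2.6-fold higher (interval from 1.67). Sfrp1 had none, Sfrp2 had 0 and 1, and Wif1 had 1 in each library. At these counts, differences of Sfrp1, Sfrp2 and Wif1 were not detectable.

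Inside the cell no member passed the rule, although several ratios lay clear of 1 by counting error. Ctnnb1, which encodes beta-catenin, had 5136 and 8014 counts, or 338 and 514 CPM, a ratio of 1.52 (1.47 to 1.58). The measured members of the destruction complex lay on the other side of 1, unlike Axin2, which is described next. Axin1, the scaffold, had 2465 and 1641 counts, a ratio of 0.65 (0.61 to 0.692), Gsk3b, the kinase, had 3735 and 2753, a ratio of 0.719 (0.684 to 0.756), and Apc had 2250 and 2047, a ratio of 0.888 (0.836 to 0.943). Dvl1, a dishevelled that relays the receptor signal, had 2990 and 1700 counts, a ratio of 0.555 (0.522 to 0.589). The other dishevelleds were close to 1: Dvl2 had 1092 and 1103 counts, a ratio of 0.986 (0.906 to 1.07), and Dvl3 had 1119 and 1103, a ratio of 0.962 (0.884 to 1.05). Dvl1 held 63.2% of the dishevelled level per kilobase with the control virus and 49.5% with AI662270. With a 1.5-fold threshold, chosen as an alternative, Ctnnb1 would pass as higher and Dvl1 and Axin1 as lower. At that threshold 1705 of all 13268 measured genes were higher and 1893 lower.

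Axin2, the inducible Axin that beta-catenin signalling turns on, had 1 count in the control and 25 with AI662270. The ratio was 24.4, with an interval from 3.99 to 1000 that a single control count leaves wide. Its mean of 0.835 CPM put it under the level for measured genes, so it is not among the 6 higher members, and without the filter on low counts it passed with a log2 ratio of 1.90. Per kilobase Axin2 stood at 0.291 CPM in the AI662270 library and Axin1 at 27.5 CPM.

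The TCF/LEF factors, which carry beta-catenin to its target genes, were all measured and none passed. Tcf7 had 471 and 501 counts, a ratio of 1.04 (0.913 to 1.18), and Tcf7l2 had 352 and 341, a ratio of 0.945 (0.812 to 1.1). Tcf7l1, mostly a repressor, had 127 and 231 counts, a ratio of 1.77 (1.42 to 2.22), and Lef1 had 12 and 26, a ratio of 2.11 (1.03 to 4.6). Tcf7 held most of the level of this family per kilobase in both libraries, with 70.8% and 65.4%, and Lef1 the least, with 0.539% and 1.01%. Of the genes that equip cells to secrete Wnts, Wls, the carrier of Wnts to the surface, had 3277 and 3187 counts, a ratio of 0.949 (0.904 to 0.997), and Porcn, the enzyme that adds the lipid, had 116 and 96, a ratio of 0.808 (0.61 to 1.07).

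Set side by side, the Wnt5a-type branch held 3 higher and 0 lower of 7 members, all measured, and the canonical branch 2 higher and 1 lower of 18 measured among 24. The median log2 ratio was 0.25 in the Wnt5a-type branch and -0.0049 in the canonical branch, a difference of 0.25. The higher members were Wnt5a, Ror1 and Ror2 in the former and Wnt6 and Rspo3 in the latter. All 5 had means of 1 to 20 CPM, where 11.6% of all genes were higher; that range held 6 of the 7 measured Wnt5a-type members and 7 of the 18 canonical ones, 3 and 2 of them higher. The other 11 measured canonical members lay above 20 CPM, where 1.95% of all genes were higher. The branches therefore differ in level as well as in counts of calls. Frizzleds, dishevelleds, antagonists and secretion genes serve both and were left out of this count. The R-spondins, Lgr4, Znrf3 and Rnf43 were placed in the canonical branch, although they act on frizzleds, which serve both. The summed level was 158 and 199 CPM for the Wnt5a-type branch and 1590 and 1540 CPM for the canonical branch. With 1 library per group the difference between branches has no test. The difference of medians lay between 0.19 and 0.31 under the alternatives tried, but the counts of calls moved. At a mean of at least 5 CPM each branch held 1 higher member. Without the filter on low counts the Wnt5a-type branch held 3 and the canonical branch 4. At 1.5-fold they held 3 and 5, where 1705 of all 13268 measured genes were higher. Without overlapping genes they held 1 and 0.

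Genes of the pathway outside the members gave no single direction. Their counts of calls are to be read against the same 5.59% higher and 5.72% lower, and against the shares by level. At means of 1 to 20 CPM 11.6% of all genes were higher and 7.24% lower, and above 20 CPM 1.95% and 4.79%. The genes called higher in these and the following pathway lists all had means of 1 to 20 CPM. Of 26 further ligands, receptors and antagonists, 7 were measured, with 1 higher and 1 lower and a median of -0.08. Wnt7a, the closest relative of Wnt7b, had 221 and 59 counts, 3.84-fold lower (2.87 to 5.21), so both Wnt7 genes were lower. Lgr6, an R-spondin receptor, had 17 and 86 counts, 4.94-fold higher (2.91 to 8.86). Of 28 further intracellular genes of the beta-catenin branch, 27 were measured and 2 were higher. These were Pygo1, a nuclear cofactor of beta-catenin, with 14 and 51 counts, 3.55-fold higher (1.94 to 6.95), and Ctnnbip1, an inhibitor of the binding of beta-catenin to TCF, with 197 and 418, 2.07-fold higher (1.74 to 2.47). Of the genes called higher or lower in these and the following pathway lists, Ctnnbip1, Jun and Daam1 overlap a gene with counts. It lies on the opposite strand in each case, and held 1, 10 and 1 counts over both libraries.

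Target genes of beta-catenin were read as a feedback list and a list of other targets, both chosen with earlier results known; the difference between the lists was not tested. Of 14 feedback targets, 7 were measured, 2 were higher and none lower, with a median of 0.12. Among all measured genes 5.59% were higher and 5.72% lower. The number of feedback targets higher was 1 with a pseudocount of 2 CPM, at a mean of at least 5 CPM or at 3-fold. The 2 higher ones, Sp5 and Apcdd1, had means of 1.51 and 8.08 CPM, in the range where 11.6% of all genes were higher. Sp5, a transcription factor turned on by Wnt signals, had 5 and 42 counts, 8.2-fold higher (3.25 to 26.5), and Apcdd1, an inhibitor of Wnt receptors, had 74 and 176, 2.32-fold higher (1.76 to 3.09). The feedback list includes the members Axin2, Rnf43, Znrf3, Lef1, Tcf7 and Dkk1, whose values are given above. The list of other targets includes the member Fzd7, whose values are also given above. Of 20 other targets, 17 were measured, 1 was higher and 4 lower, with a median of -0.33, beside the same 5.59% and 5.72%. The 4 lower ones had means above 20 CPM, where 4.79% of all genes were lower. Myc, the growth regulator, had 7159 and 1109 counts, 6.62-fold lower (6.21 to 7.05), Jun was 4.58-fold lower (4.27 to 4.92), Plaur 3.55-fold lower (3.2 to 3.94) and Fosl1 3.53-fold lower (3.26 to 3.82). The higher target was Nrp1, with 135 and 404 counts, 2.92-fold higher (2.4 to 3.58). Jun and Fosl1 are subunits of AP-1.

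Downstream of the Wnt5a-type branch, planar cell polarity genes included 3 higher and 2 lower of 22 measured, with a median of 0.06, beside 5.59% higher and 5.72% lower among all measured genes. At 3-fold the numbers were 1 and 0. Dact3, a binder of dishevelled, was 3.69-fold higher (2.31 to 6.13), Ankrd6 3.05-fold higher (1.9 to 5.05) and Prickle1, a core polarity gene, 2.39-fold higher (1.86 to 3.08). Daam1, which links dishevelled to actin, had 1774 and 671 counts, 2.71-fold lower (2.48 to 2.97), and Celsr2, an adhesion receptor, was 2.41-fold lower (2.23 to 2.62). Of 15 measured genes of the calcium branch 1 was lower, the phospholipase gene Plcb4, with 51 and 16 counts, 3.27-fold lower (1.83 to 6.14), and none was higher.

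**Figure D4:**
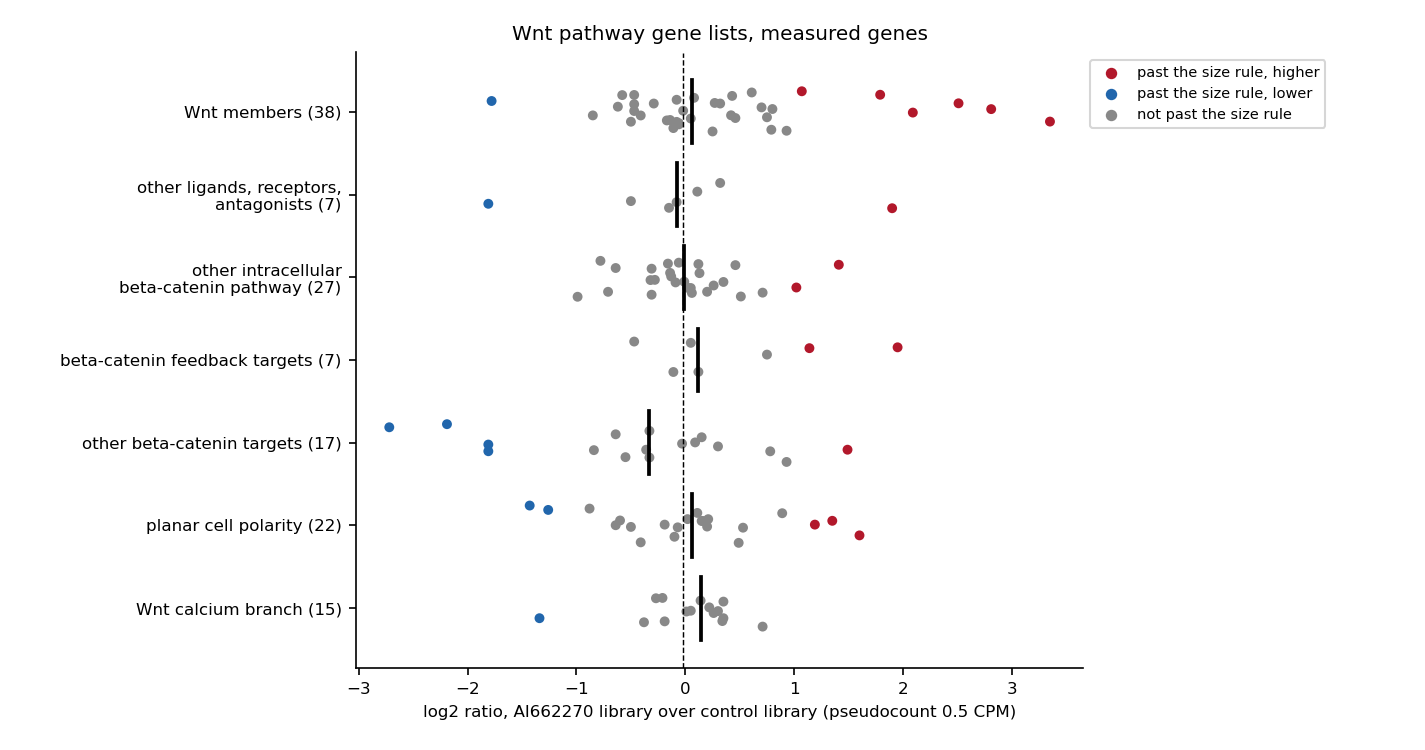
Log2 ratio (AI662270 library over control library, 0.5 CPM added) of each measured gene in the Wnt member set and 6 further pathway lists, with list medians as black bars, the median of all measured genes as a dashed line, and numbers of measured genes in brackets. The medians of the members and of the polarity genes were 0.07 and 0.06, and that of the other beta-catenin targets was -0.33.

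The authors' deposited table carries its own adjusted p-value for 44 of the members, made from the same 2 libraries and so without a spread between replicates. At a limit of 0.05 on that p-value, the authors' deposited table lists 7 of these members (6 higher and 1 lower), beside 2.21% higher and 2.13% lower among 20667 genes with a value. The authors' deposited table gave Rspo3 an adjusted p-value of 1.50e-09, Wnt5a 2.35e-07 and Ror1 1.09e-05. In the authors' deposited table Axin2 was among the 6, with an adjusted p-value of 0.00184, and Ror2 was not, with 0.215. Wnt7b had an adjusted p-value of 0.00147 in the authors' deposited table.

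The 7 members past the rule lie at separate loci, and their neighbours mostly did not pass. Among all measured genes 5.59% were higher and 5.72% lower, so few calls are expected in any set of 10 neighbours. At means of 1 to 20 CPM these shares were 11.6% and 7.24%, and above 20 CPM 1.95% and 4.79%. For each of the 7 members, the 5 closest measured genes to either side were read. Around Wnt5a, Rspo3 and Fzd3 none of the 10 neighbours passed, and the neighbours' medians were -0.05, -0.08 and 0.20 on the log2 scale. Around Ror1, 3 neighbours were higher: Ak4, a mitochondrial adenylate kinase, with 47 and 870 counts, Pgm2, with 898 and 2607, and Dnajc6, with 0 and 55. The Ror1 neighbours' median was 0.52, the highest of the 7. Around Ror2, 2 were higher, Msx2, a homeobox gene, with 6 and 80 counts, and Cplx2, with 21 and 63, and 1 was lower, the adjacent Nfil3, with 2116 and 483. Wnt6 had Nhej1 among its neighbours as the 1 that was higher, and Wnt7b had Smc1b and Ppara as higher and the adjacent Lncppara, with 47 and 19 counts, as lower.

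**Figure D5:**
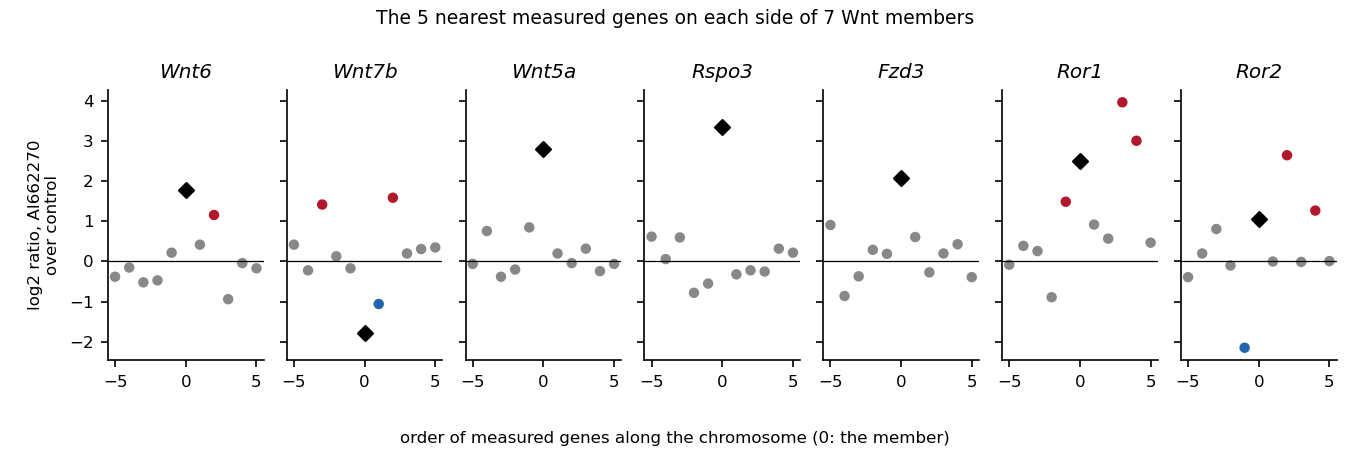
Log2 ratio (AI662270 library over control library, 0.5 CPM added) of the 5 closest measured genes to either side of the 7 members past the size rule, in chromosome order; the black diamond is the member, red and blue points are neighbours past the rule as higher and lower, and grey points passed in neither direction. None of the neighbours of Wnt5a, Rspo3 and Fzd3 passed, and Ror1 has 3 higher neighbours, beside 5.59% higher and 5.72% lower among all measured genes.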

How the data were processed

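The 51 members and the pathway and marker lists were chosen with earlier results of these data known. Per the submitters' processing notes, CASAVA 1.4, TopHat2 and build mm10 were used. The read counter, annotation release and use of strand were not given in the sources used here. Reads of overlapping genes cannot be told apart. Of the members, 3 overlap genes with at least 50 counts (Wnt5b, Dvl2 and Ctnnb1), and none of these passed the size rule. The deposited counts are whole reads per gene, not normalized by the authors, judged from the values. The deposited FPKM columns divide those counts by gene length and by 15391166 in both libraries. The deposited signal columns, rescaled counts per the file headers, did not enter. Log2 fold changes and p-values of the authors' table are theirs, from 1 library against 1.

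Counts were scaled over the whole table with TMM (edgeR 4.0.16, R 4.3.3; factors 0.967 and 1.03). Log2 ratios used a pseudocount of 0.5 CPM, which understates changes of low genes, so folds are CPM ratios without it, with 95% Clopper-Pearson intervals that cover counting error only. The size rule needs a 2-fold ratio, an interval without 1 and a mean of at least 1 CPM. Levels per kilobase used the deposited lengths, which equal the summed exons of GENCODE M21 for 48 of 51 members. Every measured member is named; in each other list the genes past the rule are named by size of their log2 ratio, up to 4. Neighbours and marker genes with values were named after these were seen. Some marker genes are not reported here by name.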

Additional observations from a re-analysis of the deposited data

How the results depend on the processing

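No called value reversed under the alternatives. The number of Wnt members that were higher, 6, became 3 with a mean of at least 5 CPM, 12 at 1.5-fold and 1 without genes that overlap another gene; the number lower, 1, became 3 at 1.5-fold, and 0 without overlapping genes and among members with a mean of 1 to 20 CPM alone, a setting chosen after seeing the data. Leaving out overlapping genes removes every called member but Ror2 by construction, and it moved the members' median to 0.32; the genes that overlap called members hold at most 12 counts in all. Ror2 did not pass with a pseudocount of 2 CPM, a mean of at least 5 CPM, a 3-fold threshold or the deposited FPKM, and Wnt6 and Ror1 did not reach a mean of 5 CPM. The genes higher, 742, became 400 with a pseudocount of 2 CPM, 391 at a mean of at least 5 CPM, 1705 at 1.5-fold, 247 at 3-fold, 487 with FPKM and 392 without overlapping genes. The genes lower, 759, became 1893 at 1.5-fold, 262 at 3-fold and 385 without overlapping genes. The median of all genes was -0.02 with TMM, 0.08 with total counts, 0.02 with DESeq2 1.42.0 size factors and 0.05 with upper quartiles; Dvl2, Dvl3, Tcf7l2, Wls and Wnt9a, none past the rule, changed sign under at least 1 of these. No paired analysis was possible because each group has 1 library, and for the same reason no library could be left out. Depth limits the members under 1 CPM most: 3 counts are 0.197 CPM in the control library.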

Other observations

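Wnt genes outside the members included some with few counts. Wnt16 had 15 counts (control) and 1 (AI662270), below the level for measured genes. Wnt10b had 18 and 25 counts, or 1.18 and 1.60 CPM. Among podocyte markers, Wt1, a transcription factor of the forming nephron, had 0 and 22 counts.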
